A study of Mus musculus with 3 samples.

Results

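A set of 10 mouse genes for enzymes that handle foreign compounds, steroids and peroxides were followed through dissociated dorsal skin: Mgst1, Gpx3, Gstm1, Cyp2f2, Cyp1b1, Fmo1, Fmo2, Inmt, Aldh3a1 and Sult1e1. They were chosen by symbol, and all 10 were found among the 27998 genes of the count matrices. Dorsal skin of C57BL/6 mice was digested with collagenase D and DNase1, and single cells were captured in droplets and sequenced. The study made 1 library each from neonatal, 3-week-old and 2-month-old mice. The labels give no genotype, treatment or sex, and do not say how many animals went into a library, so no difference between ages has a replicate error. The study's title concerns IL-1 and WNT signalling in the dermal adipocyte lineage, and the question followed here is which skin cells carried the transcripts of these enzymes and how their level differed between the ages.

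Detoxification is usually described in steps. Cytochromes P450 and flavin-containing monooxygenases insert oxygen into a lipid-soluble molecule, aldehyde dehydrogenases oxidise reactive aldehydes, and transferases then attach glutathione, sulfate or a methyl group so that the product can be exported. Glutathione peroxidases reduce hydrogen peroxide and lipid peroxides with the same glutathione. Liver is the textbook site, but skin is exposed to chemicals and light and expresses its own set, and receptors such as the aryl hydrocarbon receptor and the factor NRF2 are known to switch on several of these genes.

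Windows of 250 bases before an annotated transcription start were available from RefSeq (GRCm38.p6) for 8 of the 10 genes, 11 windows in all. Of these, 4 are printed 5′ to 3′ on the strand of the gene, because 3 of them hold a letter match to a motif of those regulators and the fourth belongs to the gene with the latest appearance. Capitals mark GCGTG or its reverse complement CACGC, the core of the element bound by the aryl hydrocarbon receptor, and TGACNNNGC or its reverse complement GCNNNGTCA, the core of the antioxidant response element.
Mgst1, chr6:138140277-138140526, plus strand: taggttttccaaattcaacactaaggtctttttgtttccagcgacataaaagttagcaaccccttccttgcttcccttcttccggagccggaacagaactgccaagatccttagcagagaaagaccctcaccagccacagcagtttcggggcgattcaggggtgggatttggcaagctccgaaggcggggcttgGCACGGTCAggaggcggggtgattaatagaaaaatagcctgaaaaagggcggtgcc
Gstm1, chr3:108017974-108018223, minus strand: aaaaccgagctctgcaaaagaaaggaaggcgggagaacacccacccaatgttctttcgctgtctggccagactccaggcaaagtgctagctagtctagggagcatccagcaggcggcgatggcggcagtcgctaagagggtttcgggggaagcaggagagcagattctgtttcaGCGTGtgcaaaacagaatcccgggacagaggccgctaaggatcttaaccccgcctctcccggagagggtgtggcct
Cyp1b1, chr17:79715062-79715311, minus strand: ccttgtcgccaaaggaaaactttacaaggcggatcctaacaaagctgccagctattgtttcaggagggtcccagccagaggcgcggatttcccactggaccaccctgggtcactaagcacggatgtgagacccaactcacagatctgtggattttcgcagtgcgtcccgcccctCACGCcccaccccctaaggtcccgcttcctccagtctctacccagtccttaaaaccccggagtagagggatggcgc
Sult1e1, chr5:87591612-87591861, minus strand: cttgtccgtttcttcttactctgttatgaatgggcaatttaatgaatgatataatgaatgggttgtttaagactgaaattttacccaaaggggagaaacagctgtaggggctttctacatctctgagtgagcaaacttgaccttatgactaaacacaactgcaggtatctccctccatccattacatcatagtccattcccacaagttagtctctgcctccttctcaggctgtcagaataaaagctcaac
GCGTG was present in 28.2% of all 32851 promoter windows of the same length and in windows of 2 of the 8 genes, Gstm1 and Cyp1b1. TGACNNNGC was present in 10.2% of all windows and in 1 of the 8 genes, Mgst1. A match is a description of the letters and not a binding site.

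After filtering, 7436 neonatal, 8689 3-week and 8984 2-month cells remained, with medians of 8506.5, 11006 and 8280.0 unique molecular identifiers (UMIs) per cell, and pairs of libraries shared between 22 and 29 cell barcodes. Cells were grouped by clustering on genes other than these enzymes and named from marker genes, with the suffix -like. Fibroblast-like cells numbered 6171, 5411 and 4714, and all 7 fibroblast markers (Pdgfra, Dcn, Lum and 4 others) were detected in them in every library. Different clusters held most of that class at each age: clusters 2, 3, 5 and 9 in the neonatal library, 1, 8 and 4 at 3 weeks, and 0, 12 and 6 at 2 months. The neonatal library also differed in the sex-linked genes. Xist, the RNA of the inactive X chromosome, stood at 636 UMIs of the gene per 1e6 UMIs (CPM) in neonatal fibroblast-like cells against 0.0900 and 0.0989 in the older libraries, while the Y-linked gene Ddx3y was detected in all 3 libraries, at 36.5, 97.8 and 109.8 CPM. Of the neonatal fibroblast-like cells, 60.0% had a Xist UMI and no Y-linked UMI and 28.5% had the opposite.

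In fibroblast-like cells, 9 of these genes were measured in the step from neonatal skin to 3 weeks, meaning 10 CPM or more in at least 1 of the 2 libraries, and all 9 were at least 2-fold higher at 3 weeks. None was lower. Among all 8531 genes measured in the same comparison, 8.3% passed 2-fold upwards and 12.2% downwards, and the median log2 ratio was -0.21 against 1.99 over the 9 genes. Of the 9, Cyp2f2, Cyp1b1, Fmo2, Inmt and Aldh3a1 were under 10 CPM in the neonatal library, so these 5 were measured only through the 3-week library and could only be higher. Mgst1, Gpx3, Gstm1 and Fmo1 were above 10 CPM in both. The count and median are given as a description. From 3 weeks to 2 months, 5 of 10 were at least 2-fold higher (Gpx3, Cyp2f2, Inmt, Aldh3a1 and Sult1e1) and none was lower, where 3.22% of 7942 genes were higher and 3.49% lower. The median was 0.67 over the 10 genes and -0.10 over all genes, and Sult1e1 was measured only through the 2-month library. Both comparisons share the 3-week library. Trimmed-mean (TMM) scaling moved every log2 ratio of the first step by 0.24 and turned the split of all genes from 708 higher and 1042 lower to 990 and 607, while leaving out mitochondrial, ribosomal and haemoglobin genes gave 569 and 1922. All 9 genes were at least 2-fold higher under both. In the second step the split of all genes was 256 higher and 277 lower, against 324 and 226 with TMM scaling and 303 and 173 when the mean over cells was used. When both libraries were restricted to cells with a Y-linked UMI and no Xist UMI, an alternative added after the data were seen, 9 of 9 were again higher in the first step. Markers of keratinocytes, a list of 10, summed to 54.9, 133 and 103 CPM in fibroblast-like cells in age order, and those of macrophages, a list of 7, to 3.66, 33.7 and 53.2 CPM. Erythroid markers summed to 647, 1528 and 202 CPM, and those of T or innate lymphoid cells to 338, 739 and 455 CPM. Sums also differed between the ages for markers of neutrophils or monocytes (27.8, 66.4 and 188 CPM), melanocytes (14.6, 26.3 and 77.2), Schwann cells (8.75, 27.7 and 47.5) and dendritic or Langerhans cells (3.34, 10.2 and 21.0). The other 7 lists summed to at most 69.2 CPM in any library. Their part in these differences was not tested.

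**Figure D1:**
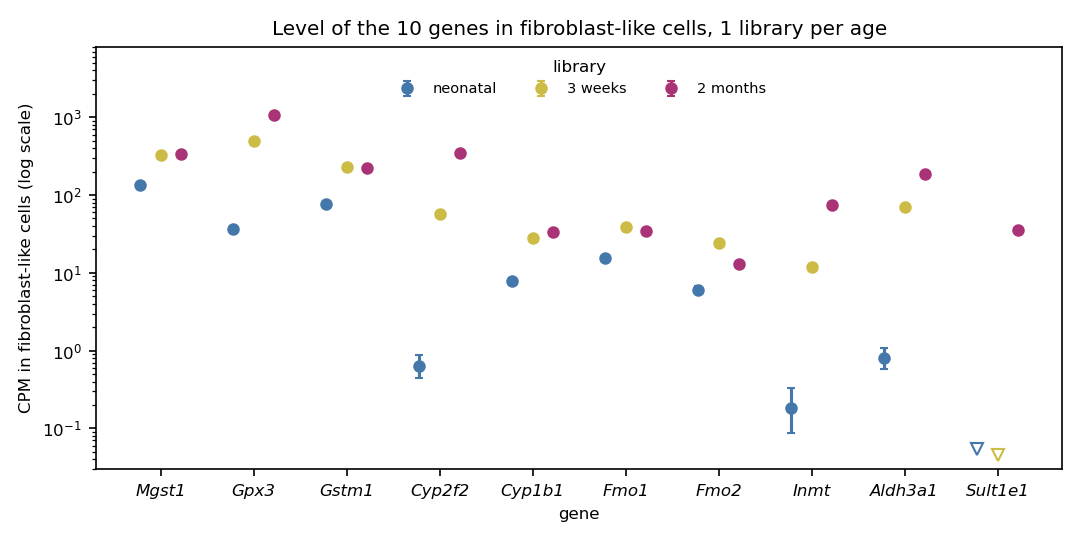
Level of each gene in fibroblast-like cells as CPM on a log axis, with exact Poisson 95% intervals for counting error and 1 library per age. Open triangles mark the floor of 3 counts where no UMI was counted. The neonatal point is the lowest for each of the 9 genes with neonatal UMIs, and Sult1e1 has UMIs only at 2 months.

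Among the oxidising enzymes, Cyp2f2 had one of the widest ranges. Cyp2f2 encodes a cytochrome P450 best known from the airway, where it oxidises naphthalene, and lies at chr7:27119909-27133660 on the plus strand (GRCm38, GENCODE vM21). Its level in fibroblast-like cells was 0.631 CPM in the neonatal library (95% interval 0.440 to 0.878), 57.5 CPM at 3 weeks (55.7 to 59.4) and 343 CPM at 2 months (338 to 348). The 3 intervals did not overlap, and the steps were 91.1-fold and 5.96-fold. An annotated gene, Gm15883, overlaps Cyp2f2 on the opposite strand, and the sources used here do not state whether counting used strand. After thinning each cell to 1500 UMIs, which left out 54, 17 and 111 shallower fibroblast-like cells, Cyp2f2 had a UMI in 0.0654%, 6.04% and 25.3% of fibroblast-like cells, and in 0 of 302, 0.537% and 0.569% of keratinocyte-like cells. Without thinning the fibroblast shares were 0.357%, 17.4% and 48.2%.

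Cyp1b1 encodes a cytochrome P450 that hydroxylates estradiol and polycyclic hydrocarbons and is a classical target of the aryl hydrocarbon receptor (chr17:79701537-79715061, minus strand). It stood at 7.85 CPM in neonatal, 28.2 CPM in 3-week and 33.2 CPM in 2-month fibroblast-like cells. The first step was 3.59-fold and the second 1.18-fold, so the level at 2 months was within 2-fold of that at 3 weeks. Fmo1 and Fmo2 encode flavin-containing monooxygenases, which oxidise nitrogen and sulfur atoms of drugs, and lie next to each other on the minus strand (chr1:162829561-162866610 and chr1:162874317-162898726, 7.71 kb apart with 0 protein-coding genes between them). Fmo1 went from 15.6 CPM to 39.1 and 34.8 CPM. Fmo2 went from 6.10 CPM to 24.2 and back to 13.0 CPM. Fmo2 was the member with the clearest lower value at 2 months, a log2 ratio of -0.90 (-1.03 to -0.77), which did not pass 2-fold and did so, at -1.06, only among cells with a Y-linked UMI and no Xist UMI.

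Aldh3a1 encodes an aldehyde dehydrogenase known from cornea, where it clears aldehydes made by ultraviolet light (chr11:61207537-61218421, plus strand). Fibroblast-like cells held it at 0.794 CPM in the neonatal library, 70.2 CPM at 3 weeks and 186 CPM at 2 months. These are steps of 88.5-fold and 2.65-fold, from 44 to 4683 and 9394 UMIs. The thinned share of cells with an Aldh3a1 UMI went from 0.147% to 8.79% and 19.1%.

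Of the members, 4 are conjugating enzymes. Mgst1 encodes a glutathione transferase of intracellular membranes (chr6:138140316-138156755, plus strand), and it stood at 134, 328 and 340 CPM. Gstm1 encodes a soluble glutathione transferase of the mu class (chr3:108012255-108017973, minus strand), and it stood at 76.1, 229 and 225 CPM. These were the members with the most UMIs in neonatal fibroblast-like cells. They were 2.44-fold and 3.00-fold higher at 3 weeks, and the levels at 2 months lay within 2-fold of those at 3 weeks. Of the 31-base words in the last 500 bases of the longest Gstm1 transcript, 8.30% also occur in Gstm3 or the pseudogene Gstm2-ps1, so the Gstm1 counts carry some uncertainty. No shared word of that length was found for the other 9 genes.

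Inmt encodes indolethylamine N-methyltransferase, which methylates tryptamine and related amines (chr6:55170626-55175043, minus strand). It had 10 UMIs in neonatal fibroblast-like cells (0.180 CPM), 801 at 3 weeks (12 CPM) and 3713 at 2 months (73.5 CPM). Sult1e1 encodes the estrogen sulfotransferase, which inactivates estradiol by adding sulfate (chr5:87575969-87591594, minus strand). No Sult1e1 UMI was counted in neonatal or 3-week fibroblast-like cells, against 1820 UMIs, or 36.0 CPM (34.4 to 37.7), at 2 months. Set against a floor of 3 counts in the 3-week library, the level at 2 months was at least 800.3-fold higher. The thinned share of 2-month fibroblast-like cells with a Sult1e1 UMI was 3.61%, against 8.38% without thinning. A count of 0 in all 6171 neonatal cells, set at the floor of 3 counts, allows a share of cells with a UMI of up to 0.0486%.

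Gpx3 encodes the secreted glutathione peroxidase of plasma and extracellular fluid, a selenoprotein (chr11:54902453-54910377, plus strand). Its level was 36.6 CPM (35.0 to 38.2) in neonatal fibroblast-like cells, 502 CPM (496 to 507) at 3 weeks and 1073 CPM (1064 to 1082) at 2 months. It was the member with the most UMIs at 2 months, 54253. The steps were 13.7-fold and 2.14-fold, and the thinned share of cells with a UMI went from 3.22% to 22.8% and 33.0%.

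The number of members detected in a single cell also differed between the ages. At an equal depth of 1500 UMIs, 76.0% of neonatal fibroblast-like cells had a UMI of none of the 10 genes, against 32.5% at 3 weeks and 16.9% at 2 months. Cells with UMIs of 3 or more of the genes made up 0.768%, 9.62% and 23.5%. In keratinocyte-like cells of the same libraries that share was 0 of 302, 0.537% and 0.342%.

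A wider list of 151 detoxification and antioxidant genes, without the 10 members, was counted by the same rule. At 3 weeks 20 of its 94 measured genes were at least 2-fold higher than in the neonatal library and 3 were lower, with a median log2 ratio of 0.35, where 8.3% of all genes were higher and 12.2% lower. By role, 11 of 26 genes of oxidation and hydrolysis were higher and 1 lower, 3 of 13 conjugation genes were higher and 2 lower, 5 of 42 antioxidant genes were higher and 0 lower, and 1 of 13 receptors and regulators was higher. The shares of the antioxidant genes and of the receptors and regulators that were higher lay near that of all genes. At 2 months 10 of 99 were higher than at 3 weeks and 4 lower, with a median of 0.10, where 3.22% of all genes were higher and 3.49% lower. The share that was lower was near that of all genes. In both steps a gene under 10 CPM in the earlier library was measured only through the later one. Such a gene could only be higher, in the list as among all genes.

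The 12 genes of that list with the largest log2 ratios in the first step were all higher at 3 weeks. Adh7, Sod3, Gstm2 and Cyp4b1 were above 10 CPM in both libraries. The rest were under 10 CPM in the neonatal library, so they could only be higher. Aldh1a1, which makes retinoic acid, went from 2.78 to 52.0 CPM, and the alcohol dehydrogenase Adh7 from 18.5 to 119 CPM. Esr1, the estrogen receptor, went from 5.68 to 56.9 CPM. The others were the carboxylesterase Ces2g (3.19 to 41.8 CPM), the amine oxidase Maob (2.38 to 19.0), the extracellular superoxide dismutase Sod3 (12.2 to 77.0), the glutathione transferases Gstt1 (7.90 to 39.9), Gstm2 (34.4 to 170) and Gstt3 (2.74 to 12.3), the lactonase Pon3 (2.24 to 11), and the cytochromes P450 Cyp4b1 (16.3 to 79.8) and Cyp27a1 (3.99 to 18.2).

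Between 3 weeks and 2 months the 12 were split. Higher were Aldh1a1 (52.0 to 247 CPM), Gstp2 (4.15 to 16.8), the selenium carrier Sepp1 (338 to 1073), Cyp4v3 (3.45 to 10.5), the glucocorticoid-activating enzyme Hsd11b1 (22.1 to 60.4), the epoxide hydrolase Ephx1 (21.2 to 55.6), the sulfotransferase Sult1a1 (8.26 to 21.6), Pon2 (14.0 to 35.0) and the oxysterol hydroxylase Cyp7b1 (5.94 to 14.8). Of these, Gstp2, Cyp4v3, Sult1a1 and Cyp7b1 were under 10 CPM at 3 weeks and could only be higher. Lower were the nicotinamide methyltransferase Nnmt (163 to 43.1 CPM) and 2 enzymes of the secretory pathway, Prdx4 (296 to 114) and Gpx7 (288 to 128). Genes known to respond to tissue dissociation, a list of 20, had 1 member higher and 2 lower in the first step and 0 in either direction in the second, with sums of 29732, 29475 and 33584 CPM in age order.

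The count of members higher at 3 weeks differed between fibroblast states. Interstitial progenitor-like cells, named from Dpp4, Pi16 and other markers of the fibroblasts that lie deep in the skin and in fascia, numbered 165, 369 and 890. Only 6 members were measured in them in the first step, of which Gpx3 was higher, from 351 to 1486 CPM, and Fmo2 lower, from 39.1 to 12.4 CPM. Among all genes measured in these cells 7.15% were higher and 5.7% lower. Gstm1 stood at 390 CPM in neonatal and 387 CPM in 3-week interstitial progenitor-like cells, a log2 ratio of -0.0103 (-0.12 to 0.10). Mgst1 went from 274 to 412 CPM. In this state Gstm1 and Gpx3 were already above the neonatal class level of 76.1 and 36.6 CPM.

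Reticular-like cells, named from Thbs4, Sfrp4, Dlk1 and other markers of the lower dermis, numbered 295 and 319 in the 2 younger libraries. There 4 of 6 measured members were higher at 3 weeks: Gpx3 from 207 to 2553 CPM, Gstm1 from 131 to 407, Fmo2 from 52.7 to 124 and Mgst1 2.07-fold, to 415. None was lower, where 12.4% of all genes were higher and 5.55% lower. In preadipocyte-like cells, marked by Fabp4 and Cd36, 5 of 7 were higher, with Gpx3 going from 30.8 to 1334 CPM and Cyp2f2 from 4.35 to 79.8 CPM, where 10.7% of all genes were higher and 12% lower. Cyp2f2 and Fmo2 were under 10 CPM in these neonatal cells and could only be higher. Nerve sheath-like cells, 186 and then 81, had 0 of 6 higher and 2 lower, Mgst1 (336 to 92.4 CPM) and Fmo2 (16.0 CPM to 2 UMIs, set against the floor of 3 counts). There 13.1% of all genes were higher and 10.9% lower. Fmo2 was under 10 CPM in them at 3 weeks and could only be lower. The neonatal nerve sheath-like cells were 1 subcluster led by Ccl11, Col18a1, Vtn and Agt. Whether cells of this name are alike at the 2 ages was not tested.

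In dermal sheath-like cells, 750 and then 370, 4 of 5 members were higher (Mgst1, Cyp1b1, Fmo1 and Aldh3a1), where 13.8% of all genes were higher and 10.3% lower. Gstm1, the other one measured, stood at 41.9 and 40.9 CPM. Mgst1, Fmo1 and Aldh3a1 were under 10 CPM in these neonatal cells and could only be higher. In dermal papilla-like cells, 897 and then 305, 3 of 5 were higher (Gstm1, Cyp2f2 and Fmo1), where 11.6% of all genes were higher and 16.5% lower. Cyp2f2 was under 10 CPM in the neonatal dermal papilla-like cells and could only be higher. Mgst1 went from 275 to 186 CPM in dermal papilla-like cells, within 2-fold. In cycling fibroblast-like cells, 308 and then 223, all 7 members measured were higher, where 10.7% of all genes were higher and 10.8% lower. Mgst1 went from 4.08 to 337 CPM in them and Gstm1 from 34.6 to 156 CPM. At 4.08 CPM in the neonatal cells, Mgst1 could only be higher. Cyp2f2 and Aldh3a1 were also under 10 CPM in these neonatal cells and could only be higher. In the cells of no named state, 3215 and 3536, all 9 were higher, where 9.62% of all genes were higher and 16.3% lower. Cyp2f2, Cyp1b1, Fmo2, Inmt and Aldh3a1 were under 10 CPM in these neonatal cells and could only be higher. In every state, any other measured member under 10 CPM in the neonatal cells could also only be higher. How much of the class-wide difference comes from the mix of states was not tested.

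**Figure D2:**
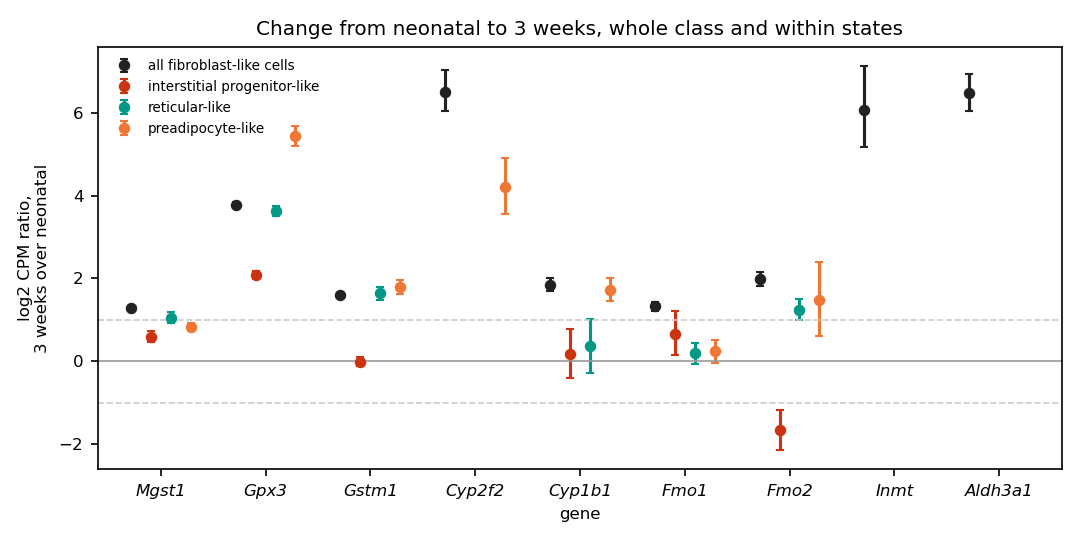
Log2 ratio of CPM, 3 weeks over neonatal, for the 9 genes measured in fibroblast-like cells, in the whole class and within 3 states, with exact 95% intervals for counting error and dashed lines at 2-fold. Genes not reaching 10 CPM in a state have no point there. Within interstitial progenitor-like cells Gstm1 lies at 0 and Fmo2 below it, while all 9 whole-class points lie above 1.

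From 3 weeks to 2 months, interstitial progenitor-like cells carried 2 members that had been near their floor. Inmt went from 2.59 to 256 CPM in them, a 99.1-fold difference, and Sult1e1 from 0 UMIs to 179 CPM, at least 322-fold above a floor of 3 counts. Cyp1b1 was lower, at 8.05 against 16.8 CPM. These were 2 higher and 1 lower of 8 members measured, where 5.56% of all genes were higher and 4.53% lower. Inmt and Sult1e1 were measured only through the 2-month library and Cyp1b1 only through the 3-week library, so their directions were fixed. Gpx3 (1486 to 2142 CPM), Gstm1 (387 to 586) and Mgst1 (412 to 497) differed by less than 2-fold. Of the 890 cells, 118 were in a subcluster led by Dmkn, Sbsn and Krtdap, genes also known from epidermis, and Sult1e1 stood at 18.4 CPM there against 201 CPM in the other 772 cells. Those 772 cells were led by Gm12840, Cxcl13, Ptgs2 and Ccl2, and the neonatal cells of this state by Akr1c18, Pi16, Anxa3 and Wnt2. Whether cells of this name are alike between the ages was not tested.

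The difference between interstitial progenitor-like cells and the other fibroblast-like cells was tested over the 3 libraries with edgeR's quasi-likelihood test and the library as a block, which asks for a difference shared by the ages. Of the 10 members, 2 were higher and 2 were lower, where 5.85% of 13943 genes were higher and 7.04% lower. Gstm1 was at 390, 387 and 586 CPM in these cells and 62.6, 214 and 150 CPM in the others, and was higher in 3 of 3 libraries (log2 difference 1.81 ± 0.41 SE, adjusted p = 0.0447). The other call, Sult1e1 (4.55 ± 0.36, edgeR adjusted p = 0.0103), is not a difference shared by the libraries. It had 179 CPM in these cells and 6.40 CPM in the others at 2 months and no UMI on either side in the other 2 libraries, and DESeq2 gave an adjusted p of 0.590. Gpx3 was higher in 3 of 3 libraries, by 2.31 ± 0.64, and missed the threshold (edgeR adjusted p = 0.0752), which it passed with DESeq2 (adjusted p = 0.000281) and in edgeR without TMM factors (0.0471). Mgst1 was also higher in 3 of 3 libraries (0.71 ± 0.26, adjusted p = 0.154).

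The 2 members called lower, Aldh3a1 and Cyp2f2, were so when cells were grouped by cluster. Aldh3a1 stood at 1.11 CPM in 3-week and 1.84 CPM in 2-month interstitial progenitor-like cells, against 76.3 and 224 CPM in the other fibroblast-like cells (log2 difference -6.59 ± 0.62, edgeR adjusted p = 0.00439). Cyp2f2 stood at 2.77 and 4.95 CPM against 62.4 and 413 CPM (-5.69 ± 0.56, adjusted p = 0.0049). The neonatal levels of both genes were under 1 CPM on either side. Without the 3-week library Sult1e1 was the 1 higher member, and Gstm1 had an edgeR adjusted p of 0.0774. Gpx3 passed without the neonatal library (adjusted p = 0.0158) and without the 2-month library (0.0125), and failed without the 3-week library (0.245). Without the library block none of 9 members tested passed. With a gate on each cell in place of clusters no member was lower: Aldh3a1 differed by -0.18 (edgeR adjusted p = 0.645) and Cyp2f2 by 0.13 (0.803). Under that gate Gstm1 did not pass (1.56, edgeR adjusted p = 0.0673) and Mgst1 did (0.86, adjusted p = 0.0305). Gstm1 also did not pass at Leiden resolution 2 (edgeR adjusted p = 0.0544).

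Reticular-like cells were set against the other fibroblast-like cells in the neonatal and 3-week libraries. Of 9 members tested 2 were higher and 0 lower, where 1.33% of 13646 genes were higher and 1.54% lower. Fmo2 was at 52.7 and 124 CPM in reticular-like cells and 3.07 and 17.6 CPM in the others (log2 difference 3.51 ± 0.43, edgeR adjusted p = 0.0261). Gpx3 was at 207 and 2553 CPM against 25.5 and 366 CPM (3.00 ± 0.26, adjusted p = 0.0152). Aldh3a1 (-4.41 ± 0.79, adjusted p = 0.058) and Cyp2f2 (-3.57 ± 0.71, adjusted p = 0.0747) did not pass. The fit without the library block called no gene of any kind (1077 of 13646 at an unadjusted p under 0.05 in edgeR), and the DESeq2 fit called 4 members higher and 1 lower.

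**Figure D3:**
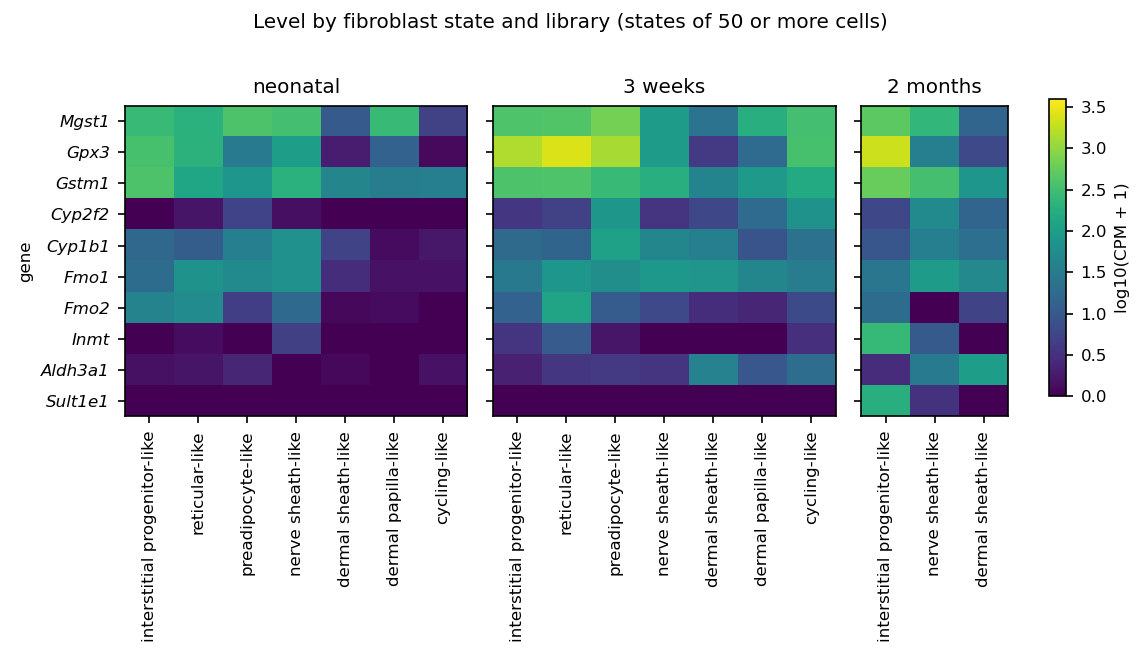
Level of each gene in the named fibroblast states of 50 or more cells, as log10(CPM + 1), with 1 panel per library. Gpx3 is brightest in reticular-like cells at 3 weeks and in interstitial progenitor-like cells at 2 months, and Aldh3a1 is brightest in dermal sheath-like cells at both of those ages.

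Fmo1 was at 64.4, 82.1 and 95.8 CPM in nerve sheath-like cells, named from Vwa1, Apod and other markers of the cells around nerves. It was also at 66.9 and 76.5 CPM in reticular-like cells of the 2 younger libraries. Its highest level in a subcluster at 2 months, 137 CPM, was in one of no named state led by Gldn and Col11a1. Cyp1b1 reached 114 CPM in 3-week preadipocyte-like cells and 64.4 CPM in neonatal nerve sheath-like cells, which were led by Ccl11, Col18a1, Vtn and Agt. Dermal sheath-like cells, named from Coch, Crabp1 and other markers and led at 2 months by Cck, Fmod, Coch and Kera, stayed low in Gpx3 at 0.887, 3.09 and 5.27 CPM and in Mgst1 at 9.41, 22.8 and 14.0 CPM. The same cells carried Fmo1 at 1.95, 74.1 and 48.3 CPM and Aldh3a1 at 0.177, 38.2 and 104 CPM. Of their leading genes, Fmod and Kera were on the marker list of tendon or fascia-like cells. Their own list also held contractile genes such as Acta2 and Tagln.

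Most fibroblast-like cells of the older libraries belonged to subclusters without a state name, and these differed in which members they carried. At 3 weeks the subcluster led by Igfbp2, Grem1 and Fcgr3 (401 cells) had the highest Aldh3a1 level, 230 CPM, with Gpx3 at 7.96 CPM. The subcluster led by C2, Inmt and Gdf10 (455 cells, 8.41% of the class) had Aldh3a1 at 2.05 CPM with Gpx3 at 920 CPM, and held 89.8% of all Inmt UMIs and 57.6% of all Fmo2 UMIs of the class. Inmt and Fmo2 are among the 10 genes that lead this subcluster, although neither was used to form it.

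Subclusters at 2 months differed in the same 2 genes. The one led by Igfbp2, Stc1 and F13a1 (247 cells) had Aldh3a1 at 482 CPM and Gpx3 at 19.1 CPM. The one led by Cxcl14, Cygb and Agt (310 cells) had the highest levels of Gpx3 (3937 CPM), Inmt (637 CPM), Fmo2 (173 CPM) and Mgst1 (528 CPM) among 12 subclusters, with Aldh3a1 at 10.2 CPM. Cyp2f2 was highest, at 672 CPM, in the subcluster led by Cilp, Ctgf and Ltbp2 (658 cells), which also had the highest Cyp1b1 level, 158 CPM, and held 51.7% of the Cyp1b1 UMIs. A subcluster led by Cthrc1, Nkain4 and Ctla2a (409 cells) combined Gpx3 at 3006 CPM with Cyp2f2 at 273 CPM and Inmt at 2.63 CPM.

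Over the subclusters of 50 or more cells within a library, the Pearson correlation of log2(CPM + 1) between Gpx3 and Aldh3a1 was -0.74 over 16 subclusters at 3 weeks and -0.70 over 12 at 2 months, against -0.11 over 16 in the neonatal library, where Aldh3a1 was near its floor. Between Gpx3 and Gstm1 it was 0.84, 0.83 and 0.61 in age order, and between Gpx3 and Mgst1 0.79, 0.78 and 0.70. Cyp2f2 and Aldh3a1 correlated at 0.81 at 2 months and at 0.23 at 3 weeks. Subclusters of a library share its preparation and depth, so these values describe the libraries and carry no test.

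**Figure D4:**
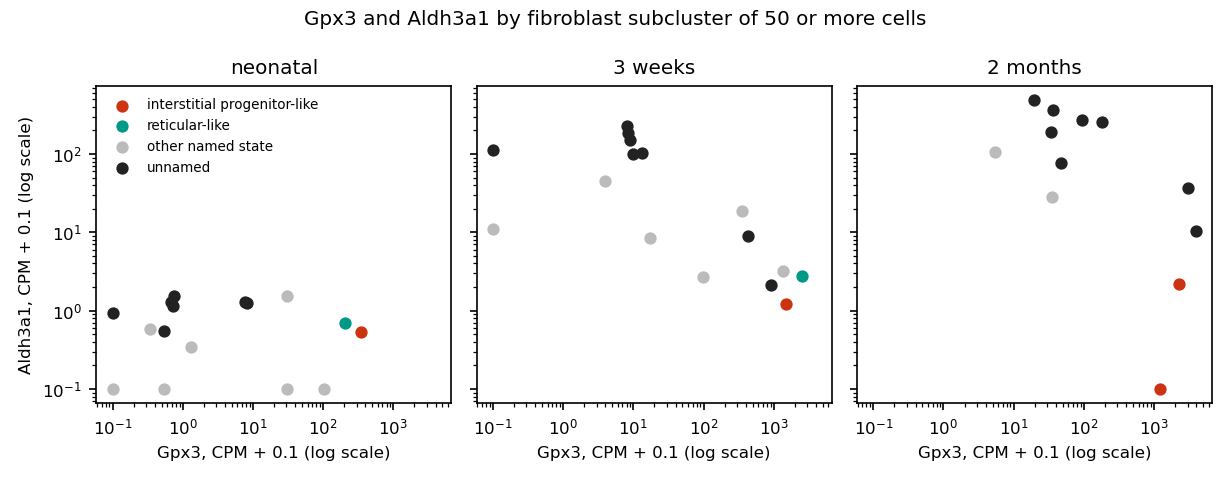
Each point is a fibroblast subcluster of 50 or more cells, with Gpx3 on the horizontal and Aldh3a1 on the vertical axis as CPM + 0.1 on log axes, 1 panel per library. At 3 weeks and 2 months the subclusters high in Gpx3, among them the interstitial progenitor-like ones, lie low in Aldh3a1, and in the neonatal library all lie below 2 CPM of Aldh3a1.

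Fibroblast-like cells were compared with keratinocyte-like cells, which form epidermis and hair follicles, over the 3 libraries in a fit with 4 further classes. Of 9 members tested 6 were higher in fibroblast-like cells (Fmo1, Fmo2, Inmt, Mgst1, Gpx3 and Cyp1b1) and none was lower, where 24.8% of 11337 genes were higher and 21.9% lower. Gpx3 was at 0.125, 6.77 and 14.7 CPM in keratinocyte-like cells, and the log2 difference was 6.36 ± 1.04 SE (edgeR adjusted p = 0.000156). Fmo1 was at 0.747, 1.82 and 0.942 CPM in them (4.88 ± 0.53, adjusted p = 3.62e-06).

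The other 3 members tested did not pass. Gstm1 was at 23.3, 117 and 212 CPM in them, reaching 94.4% of the fibroblast-like level at 2 months (0.97 ± 0.39, edgeR adjusted p = 0.056). Aldh3a1 was at 1.12, 80.6 and 108 CPM, so it was above the fibroblast-like level at 3 weeks and below it at 2 months (0.38 ± 0.43, adjusted p = 0.494). Cyp2f2 had 5.48 CPM in neonatal keratinocyte-like cells and 3.77 and 7.99 CPM later (2.97 ± 1.38, adjusted p = 0.0909). For comparison, fibroblast markers, which keratinocyte-like cells should lack, reached 1.52% to 4.69% of their fibroblast-like level in the neonatal library, 4.25% to 4.76% at 3 weeks and 1.61% to 1.84% at 2 months. Cyp2f2 reached 868%, 6.55% and 2.33%, and Gpx3 reached 1.37% at 2 months.

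**Figure D5:**
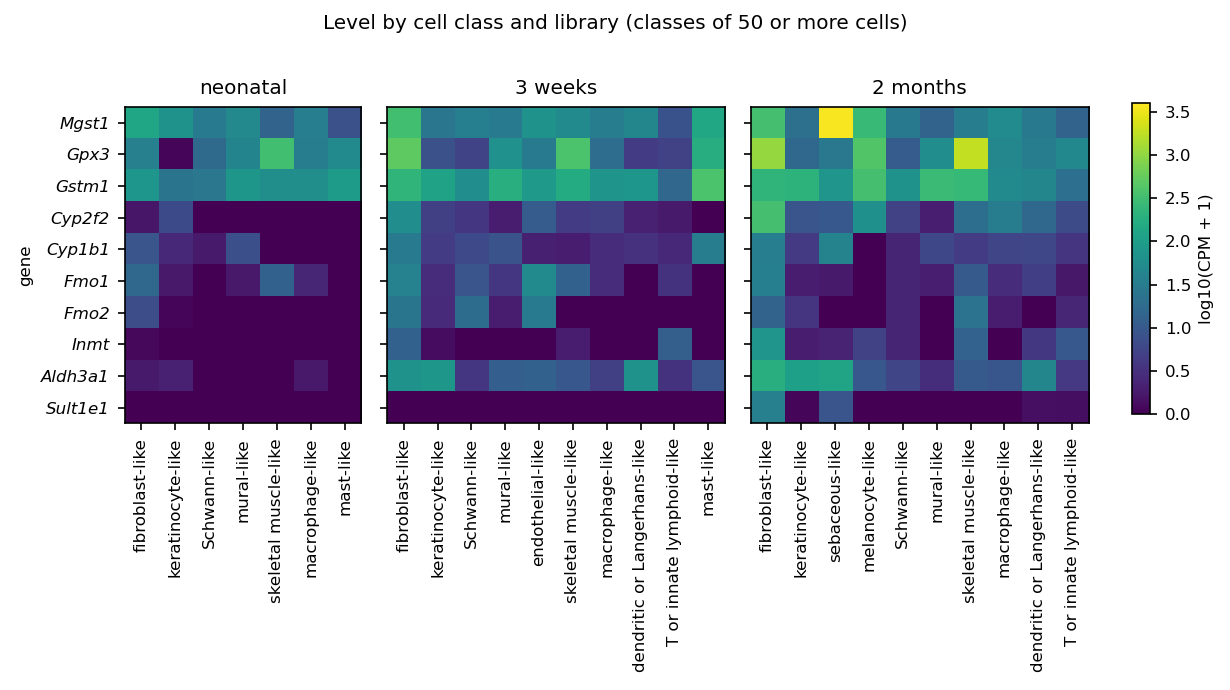
Level of each gene in cell classes of 50 or more cells as log10(CPM + 1), with 1 panel per library. The brightest cells are Mgst1 in sebaceous-like and Gpx3 in skeletal muscle-like cells at 2 months, and Gstm1 is spread over nearly all classes.

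Mgst1 stood higher in another class than in fibroblast-like cells. In sebaceous-like cells, named from Awat1, Elovl3 and other genes of skin oil synthesis, it stood at 3697 CPM (3622 to 3773) at 2 months in 107 cells, against 340 CPM in fibroblast-like cells. The 47 sebaceous-like cells at 3 weeks, under the minimum of 50, gave 2642 CPM. Sebaceous-like cells also held Aldh3a1 at 127 CPM and Cyp1b1 at 40.0 CPM at 2 months. With 1 library above the minimum, no test of these levels was possible.

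Skeletal muscle-like cells, marked by Myf5, Pax7 and Des, held Gpx3 at 321, 376 and 1870.5 CPM. They were above fibroblast-like cells in the neonatal and 2-month libraries and below them at 3 weeks, and the difference over the 3 libraries did not pass (fibroblast-like minus muscle-like -0.49 ± 0.85, edgeR adjusted p = 0.707). Fibroblast markers reached 2.06%, 13.2% and 3.62% of their fibroblast-like level in muscle-like cells by median. Gstm1 stood at 80.0, 177 and 279 CPM in mural-like cells, the contractile cells around vessels, and its difference from fibroblast-like cells did not pass (0.07 ± 0.39, edgeR adjusted p = 0.916). Mast-like cells had the highest Gstm1 level in the neonatal and 3-week libraries, 95.4 and 380 CPM, and melanocyte-like cells at 2 months, 340 CPM. The neonatal and 2-month intervals overlapped that of the next class. Melanocyte-like cells also held Gpx3 at 416 CPM at 2 months. Both classes were small and shallow: 72 mast-like cells at 3 weeks had a median of 769.5 UMIs, and 125 melanocyte-like cells at 2 months a median of 1610.

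Endothelial-like cells passed the minimum of 50 only at 3 weeks, with 115 cells. Fmo1 stood at 51.1 CPM and Fmo2 at 28.8 CPM in them, 131% and 119% of the fibroblast-like levels, while fibroblast markers were at 9.15% to 11.1%. Fmo2 was also at 17.7 CPM in 3-week Schwann-like cells. Aldh3a1 reached 69.4 and 43.7 CPM in dendritic or Langerhans-like cells, antigen-presenting cells partly within the epidermis, at 3 weeks and 2 months, but after thinning only 3 of 109 and 2 of 127 of these cells had a UMI. The Inmt level of T or innate lymphoid-like cells at 3 weeks, 11.1 CPM, came from 1 of 416 cells.

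At 2 months the UMIs of Sult1e1 were in fibroblast-like cells except for 20 in sebaceous-like cells, 3 in keratinocyte-like cells and 1 each in 3 other groups of cells, and 84.2% of the fibroblast UMIs lay in 1 subcluster with 16.4% of the cells. That subcluster was led by Gm12840, Cxcl13, Ptgs2 and Ccl2 and was named interstitial progenitor-like. In the neonatal and 3-week libraries it had no UMI in any class of 50 or more cells.

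For each member the 2 genes most like it were taken by the Pearson correlation of log2(CPM + 1) over 27 profiles of class and library, among 13139 genes. For Cyp2f2 these were Aldh1a1 (0.85) and Mmp3 (0.84), for Aldh3a1 Gstt3 (0.89) and Gm13305 (0.88), and for Cyp1b1 Thrb (0.83) and Stmn4 (0.77). For Fmo1 they were Fndc1 (0.84) and Prdm8 (0.84), and for Fmo2 Gdf10 (0.81) and Sned1 (0.78). Mgst1 was most like Dhrs7 (0.83) and Clmp (0.79), Gstm1 like Insr (0.77) and Arsa (0.74), and Gpx3 like Larp6 (0.78) and Edn3 (0.78). Inmt was most like Colq (0.77) and Hsd11b1 (0.76), and Sult1e1 like Tdo2 (0.83) and C7 (0.81). The profiles share libraries and, within a library, depth, so these are descriptions.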

How the data were processed

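The values deposited by the authors are whole-number UMI counts, not normalized. Per the submitters' processing notes, the mm10 build was used, with Cell Ranger 3.0.2 and Seurat 2.0 among the tools. The labels name Chromium 3′ v2 kits. How barcodes were chosen is not given in the sources used here. The 3 libraries hold 84086755, 113874172 and 98432611 UMIs on 8452, 10226 and 10190 barcodes.

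A barcode was kept with at least 300 genes and 500 UMIs if mitochondrial UMIs did not exceed 10%. Scrublet (scanpy 1.11.5) removed 211 and 348 doublets at 3 weeks and 2 months. Its threshold marked 0.0253% of neonatal barcodes, so 475 barcodes, the top-scoring 6%, were dropped from that library. The 3 libraries were clustered together (2000 variable genes, 30 components, 15 neighbours, Leiden resolution 1, leidenalg 0.10.2) without the 10 genes, the wider list or mitochondrial genes, and fibroblast-like cells again within each library. A cluster took the name whose markers scored highest, with at least 3 detected and a score of at least 0.5. A fibroblast state also needed at least 1 marker among the cluster's leading 10 genes. A class needed this only where its cells were low in UMIs. The name was withheld where another list had more markers among those leading genes. This scoring rule was settled in 3 versions after clusters had been seen. Cells of no named state stayed unnamed. A cluster of mixed erythroid and dermal sheath genes is not described.

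Counts were summed per class and library, as CPM with exact Poisson 95% intervals. Intervals of shares are exact Clopper-Pearson. Both, and the floor of 3 counts, cover counting error only. Tests were edgeR 4.0.16 quasi-likelihood F tests (R 4.3.3) on summed counts, with the library as a block and Benjamini-Hochberg adjustment over all genes, called under 0.05, and DESeq2 1.42.0 as an alternative. The libraries differ in age, and their p-values measure only the spread between these libraries. The tests were checked on simulated data. The text names all 10 members, the 12 genes of the wider list with the largest log2 ratio among those past 2-fold in each step, and the 2 genes most like each member. Members, lists and tests were chosen with earlier results of these data known.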

Additional observations from a re-analysis of the deposited data

Results flagged for a closer look

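In all, 5 differences between cell groups had opposite directions in different libraries, with exact intervals that exclude 0. There is 1 library per age, so the difference between the ages was not tested. Fibroblast-like minus keratinocyte-like log2 CPM of Cyp2f2 was -3.12 in the neonatal library, 3.93 at 3 weeks and 5.42 at 2 months. The same difference for Aldh3a1 was -0.20 at 3 weeks and 0.79 at 2 months. Interstitial progenitor-like minus other fibroblast-like log2 CPM of Cyp1b1 was 0.99, -0.80 and -2.26 in age order. For Fmo2 that difference was 3.06, -1.03 and 0.59, and for Inmt it was -2.31 at 3 weeks and 2.85 at 2 months.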

How the results depend on the processing

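With 1 library per age, the age values carry counting error only. The neonatal library also differs from the others in sex-linked genes.

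In the first step all 9 measured members were higher over the whole class. Within interstitial progenitor-like cells 6 were measured, 1 higher and 1 lower, where 7.15% of all genes were higher and 5.7% lower. Within reticular-like cells 6 were measured, 4 higher and 0 lower, where 12.4% of all genes were higher and 5.55% lower. Every other setting tried over the whole class gave 9. Counts within further states stand with the results. The direction of Fmo2 (-1.66) reversed within interstitial progenitor-like cells. The Gstm1 ratio there was -0.0103, with an interval that spans both directions, so it is not an observed reversal. Aldh3a1 was under 10 CPM there in both libraries, at 0.440 CPM in the neonatal library and 1.11 CPM at 3 weeks. Its ratio of -0.25 came from setting the neonatal count to the floor of 3 counts and is not an observed reversal. In the second step 2 of 8 measured members were higher and 1 lower within interstitial progenitor-like cells, where 5.56% of all genes were higher and 4.53% lower. Among cells with a Y-linked UMI and no Xist UMI, an alternative chosen after seeing the data, 1 member was lower, Fmo2. The fibroblast-like against keratinocyte-like fit called 2 members with a gate on each cell in place of clusters, which tested 5, and 6 to 8 when 1 library was left out. Without the 3-week library it called 1585 genes higher and 1034 lower, in place of 2817 and 2482.

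For interstitial progenitor-like cells, the fit with no replicate block called 0 members in either direction. Resolution 2 gave 1 higher, and the gate gave 0 lower and turned Cyp2f2 to 0.13 (edgeR adjusted p = 0.803). Leaving out 1 library gave 1 to 3 higher and 2 lower. Over all genes, 816 higher and 981 lower became 274 and 244 without the block, 232 and 289 without the 3-week library, and 425 higher with the gate. For reticular-like cells, DESeq2 gave 4 higher and 1 lower, no filter 4 and 2, doublets kept 4 and 2, resolution 2 gave 1 and 1, and fits without TMM factors or with a 5% mitochondrial limit gave 2 lower. The fit with no replicate block gave 0, and the gate turned Inmt to 2.38 (edgeR adjusted p = 0.0291). Over all genes, 181 higher and 210 lower became 466 and 371 with DESeq2, 459 and 685 without TMM factors, 534 and 646 with no filter, 412 and 396 with doublets kept, 36 and 45 at resolution 0.5, 298 higher with the 5% limit, 296 higher with the gate, and 0 without the block. Causes were not tested. Leave-one-out fits were not possible for reticular-like cells, which had 2 libraries.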
